A study of Mus musculus with 9 samples.

Results

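The 82 genes described here are nuclear genes named for oxidative phosphorylation (OXPHOS), the mitochondrial process that makes most of a resting cell's ATP. They were chosen by symbol and by a minimum level. A row of the count table was taken if its symbol starts with Ndufa, Ndufb, Ndufc, Ndufs, Ndufv, Uqcr, Cox4, Cox5, Cox6, Cox7, Cox8 or Atp5, or is Sdha, Sdhb, Sdhc or Sdhd. Cox6a2 and symbols with a pseudogene ending were left out, and a row needed at least 1 CPM, the usual unit of counts relative to the library total, in 3 or more of the 9 columns. The table has 14209 genes, and 84 rows met the symbol part. Cox7a1, which reached 1 CPM in 2 columns, and Cox8b, which reached it in 0, were dropped by the CPM minimum, and both are isoforms known mainly from heart and muscle. All 82 members reached 1 CPM in all 9 columns, and all 82 passed the expression filter of the test.

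RNA was sequenced from splenic cDC2s, dendritic cells that stimulate mostly CD4 T cells, with 3 libraries for each of 3 genotypes on the C57BL/6 background. In the Gα13-deficient group Gna13, the gene of a G protein subunit that activates RhoA, carries loxP sites and is deleted by a Cre recombinase under the CD11c promoter, which is active in dendritic cells and in some other myeloid cells. The label of that group also names Adgre5 deficiency. The CD97-deficient group is labelled a knockout of Adgre5, the gene of the adhesion G protein-coupled receptor CD97, with no restriction to a cell type named, and the third group is wild type (WT). Whether the CD97-deficient or WT mice carry Cre, the age of the mice and the way the cells were sorted are not given in the sources used here. The labels do not state that replicate libraries are from different mice. The p-values therefore rest on variation between libraries that may be technical.

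Libraries held 5679946 to 13904646 counts. Gna13 averaged 101 ± 11.4 CPM in Gα13-deficient libraries and 213 ± 23.8 CPM in WT libraries (SD, n = 3 each), and the groups did not overlap. Cd97 averaged 667 ± 207 CPM in CD97-deficient and 1234 ± 308 CPM in WT libraries, and the log2 fold change was -0.89 ± 0.28 (SE) with an adjusted p of 0.105. Cd97 averaged 1127 ± 105 CPM in the Gα13-deficient libraries, so its RNA was near the WT level there despite the label. All 10 defining markers of cDC2s were detected, with summed levels of 5047 to 5356 CPM in Gα13-deficient, 4361 to 4757 CPM in CD97-deficient and 4746 to 5379 CPM in WT libraries. Of these markers Itgam and Itgax were higher and Irf4 and Esam lower in Gα13-deficient cells than in WT, and none passed the test in CD97-deficient cells. Of their 10 log2 fold changes 7 were negative in Gα13-deficient cells, with a median of -0.21. In CD97-deficient cells 9 of the 10 were negative, with a median of -0.17. Cd209a, which did not pass the test, averaged 165 CPM in Gα13-deficient, 101 CPM in CD97-deficient and 322 CPM in WT libraries. All 16 fixed macrophage markers were also detected, and their summed level varied within groups, at 771, 975 and 612 CPM in the Gα13-deficient, 1819, 497 and 1132 CPM in the CD97-deficient and 662, 1429 and 453 CPM in the WT libraries. Of these markers 2, Emr1 and Cd209b, passed the test as lower in both knockouts, and 0 passed as higher. The log2 fold change was positive for 9 of the 16 in Gα13-deficient cells, with a median of 0.06. In CD97-deficient cells it was positive for 14 of the 16, with a median of 0.87. Emr1, which encodes the F4/80 antigen, had a log2 fold change of -0.73 (adjusted p = 0.00163) in Gα13-deficient and -0.62 (adjusted p = 0.00587) in CD97-deficient cells, and Cd209b one of -1.83 (adjusted p = 0.0174) in Gα13-deficient and -2.69 (adjusted p = 0.00429) in CD97-deficient cells. Other cell types' marker lists moved with a genotype in part. Plasmacytoid dendritic cell markers (6 of 6 detected) summed to 413 to 565 CPM in Gα13-deficient, 340 to 389 CPM in CD97-deficient and 323 to 432 CPM in WT libraries, with Tcf4 past the test in Gα13-deficient cells. Their log2 fold changes were positive for 6 of 6 in Gα13-deficient cells (median 0.49) and for 2 of 6 in CD97-deficient cells (median -0.07). Of the cDC1 markers (7 of 8 in the table), Xcr1 was higher in both knockouts and Batf3 was lower in Gα13-deficient cells (log2 fold change -0.43, adjusted p = 0.0306), while the list's sums were 1639 to 1738 CPM in Gα13-deficient, 1782 to 1909 CPM in CD97-deficient and 1701 to 1898 CPM in WT libraries. B cell markers (6 of 6 detected, 0 past the test) summed to 48.2 to 94.4 CPM in CD97-deficient and 33.9 to 46.8 CPM in WT libraries. T and NK cell markers (6 of 7 in the table, 0 past the test) summed to 8.49 to 9.21 CPM in Gα13-deficient and 0.509 to 7.06 CPM in WT libraries. Monocyte markers (4 of 5 in the table, 0 past the test) summed to 55, 27.1 and 62.8 CPM in the Gα13-deficient libraries. They summed to 29.8, 23.9 and 26.6 CPM in the CD97-deficient and 18.4, 41.5 and 17.6 CPM in the WT libraries. The part of these lists in the results below was not tested.

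In OXPHOS, complex I (NADH dehydrogenase) and complex II (succinate dehydrogenase) pass electrons through coenzyme Q to complex III and then, through cytochrome c, to complex IV (cytochrome c oxidase), where oxygen is reduced. Complexes I, III and IV pump protons across the inner mitochondrial membrane, and complex V (ATP synthase) lets them flow back and makes ATP. Dendritic cells are known to shift between OXPHOS and glycolysis with their activation state. By known function the 82 members are 35 genes of complex I, 4 of complex II, 8 of complex III, 13 of complex IV with Ndufa4 counted there, and 15 of complex V, 75 subunit genes in all. The symbol rule also took 4 assembly factors of complex I (Ndufaf1 to Ndufaf4), 2 genes named after ATP synthase that are not core subunits (Atp5s and Atp5sl), and Cox4nb, now called Emc8, which belongs to a complex of the endoplasmic reticulum and not to OXPHOS. The table held 0 of the mitochondrially encoded subunit genes, so the description covers the nuclear part alone.

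The promoters of 4 members that rose in both knockouts are printed here because these genes are 4 of the 5 members past the test in both comparisons. Each sequence is the strand of the gene, 5′ to 3′, and covers the 250 bases before the transcription start in RefSeq (GRCm38.p6). Capitals mark the letters CCGGAAG or their reverse complement CTTCCGG, the core of the sites of ETS factors such as GABP, a known regulator of OXPHOS genes. The regions are chr10:128083057-128083306 on the plus strand for Atp5b, chr8:83566508-83566757 on the plus strand for Ndufb7, chr6:11907451-11907700 on the minus strand for Ndufa4 and chr7:97399753-97400002 on the plus strand for Ndufc2.
Atp5b: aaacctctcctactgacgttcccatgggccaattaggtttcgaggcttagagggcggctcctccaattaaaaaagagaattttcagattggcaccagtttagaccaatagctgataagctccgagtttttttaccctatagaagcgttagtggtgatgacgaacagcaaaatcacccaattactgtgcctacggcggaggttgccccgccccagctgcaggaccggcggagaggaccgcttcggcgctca
Ndufb7: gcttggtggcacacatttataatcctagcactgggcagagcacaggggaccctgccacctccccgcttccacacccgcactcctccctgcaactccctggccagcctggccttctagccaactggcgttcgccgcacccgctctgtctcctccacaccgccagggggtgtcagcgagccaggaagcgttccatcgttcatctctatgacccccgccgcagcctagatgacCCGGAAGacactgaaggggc
Ndufa4: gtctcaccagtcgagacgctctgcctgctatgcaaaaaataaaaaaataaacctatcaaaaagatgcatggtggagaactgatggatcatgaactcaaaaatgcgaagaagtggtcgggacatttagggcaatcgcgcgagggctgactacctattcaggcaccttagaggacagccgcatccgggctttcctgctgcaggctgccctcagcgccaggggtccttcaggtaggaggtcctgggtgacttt
Ndufc2: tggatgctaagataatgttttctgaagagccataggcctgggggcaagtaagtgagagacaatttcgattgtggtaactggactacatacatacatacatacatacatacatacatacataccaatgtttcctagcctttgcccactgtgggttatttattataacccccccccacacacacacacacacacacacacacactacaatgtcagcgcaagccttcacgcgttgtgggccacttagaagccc
Of these 4 sequences the Ndufb7 promoter alone held the ETS core, with its first base 20 bases before the RefSeq start. The GENCODE annotation, from which the gene positions below come, starts Ndufb7 at 83566671, upstream of this site. Its starts of Atp5b and Ndufa4 also lie upstream of the RefSeq starts. Both strands were searched for 4 letter strings in the 68 members with a promoter in the RefSeq table. The ETS core occurred in 13 of the 68 (19.1%), against 7.83% of all 27025 genes with such a promoter and 14.7% of those in the count table. GCATGCGC, the core of the NRF1 site, occurred in 9 of 68 (13.2%), against 2.56% of all genes and 4.80% of those in the count table. AAGATGG (YY1) occurred in 2 members (2.94%, against 5.18% of all genes) and AAGGTCA (estrogen-related receptors) in 4 (5.88%, against 4.70%). Of the 12 members that rose in at least one knockout 9 had a promoter, and the NRF1, ETS, YY1 and estrogen-related receptor strings occurred in 0, 2, 1 and 0 of them. A match is a description of letters and not of a bound site.

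OXPHOS transcripts took a larger share of the library in both knockouts than in WT. The 82 members held 0.451%, 0.479% and 0.504% of all counts in the Gα13-deficient libraries, 0.496%, 0.472% and 0.518% in those lacking CD97 and 0.346%, 0.408% and 0.407% in the WT libraries. Every knockout library lay above every WT library, and WT replicate 1 was the lowest of the 9. On the scale of CPM corrected by TMM factors, which adjust for composition, the members summed to 4751 ± 233 CPM in Gα13-deficient, 4884 ± 162 CPM in CD97-deficient and 3943 ± 292 CPM in WT libraries (mean ± SD, n = 3 each). That was 121% of the WT mean in the Gα13-deficient and 124% in the CD97-deficient group. In bulk samples a different number of cells of one type and a different amount of RNA per cell cannot be told apart.

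By summed CPM, which abundant genes dominate, the excess was present in all 5 complexes and largest in complex V, as the plot of summed levels shows. By the median log2 fold change of single genes the order differed. That median was highest in complex III (0.33) in Gα13-deficient and in complex IV (0.32) in CD97-deficient cells. In complex V it was 0.28 in Gα13-deficient and 0.29 in CD97-deficient cells. Complex V genes summed to 129% and complex I genes to 116% of the WT mean in Gα13-deficient cells. Complexes II, III and IV stood at 109%, 118% and 116% there. In CD97-deficient cells the sums of complexes I to V stood at 115%, 109%, 120%, 117% and 135% of the WT mean. In each of the 5 complexes every library of each knockout had a higher sum than every WT library. One gene, Atp5b, weighed heavily: it made up 26.5% of the members' summed CPM in Gα13-deficient, 27.3% in CD97-deficient and 23.5% in WT libraries. Without it the members summed to 116% of the WT mean in Gα13-deficient and 118% in CD97-deficient cells.

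**Figure D1:**
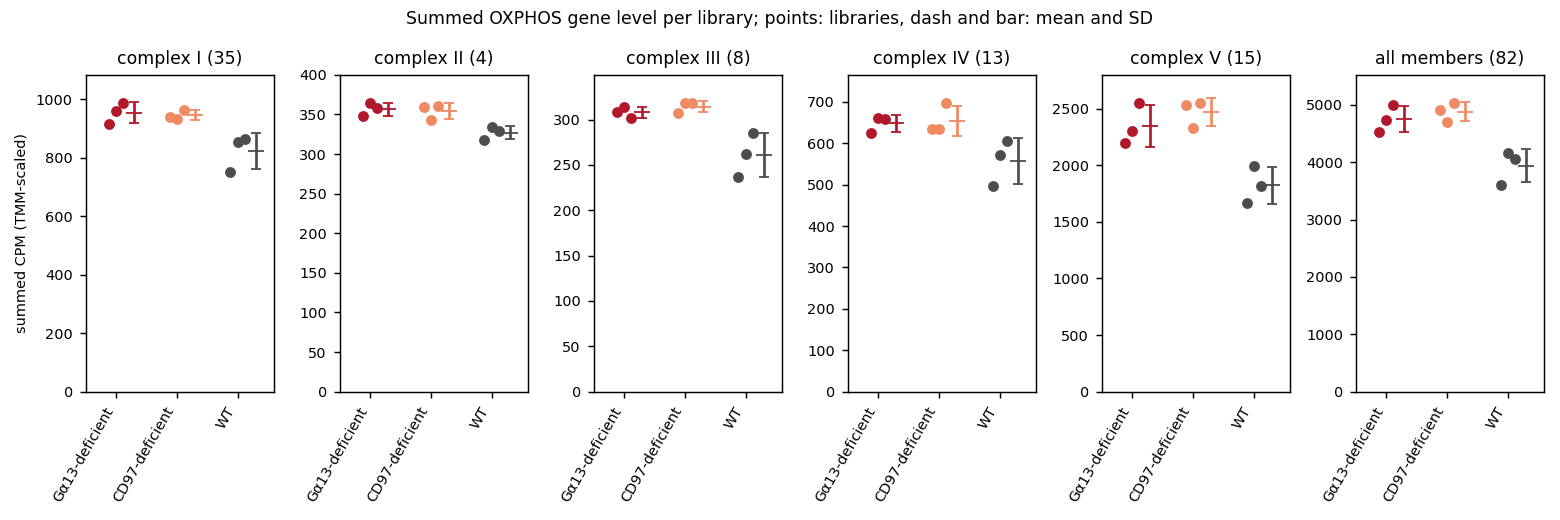
Summed TMM-scaled CPM of the members per library, for each complex and for all 82 members, on linear axes from 0; points are libraries and the dash with its bar is the mean with its SD (n = 3). In each panel the 3 Gα13-deficient and the 3 CD97-deficient libraries lie above the 3 WT libraries.

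Across the members, 9 of 82 (11.0%) were higher and 0 lower in Gα13-deficient cells than in WT by edgeR's quasi-likelihood test at an adjusted p under 0.05, against a background of 5.74% higher and 5.24% lower (11.0% in all) among the 12043 genes tested. At an unadjusted p under 0.05 it was 29 of the 82 members, against 3111 of the 12043 genes tested. In CD97-deficient cells 8 of 82 (9.76%) were higher and 0 lower, against a background of 4.84% higher and 3.69% lower (8.53% in all). There 28 of the 82 had an unadjusted p under 0.05, against 2946 of the 12043 genes tested. The changes were small: the median log2 fold change of the members was 0.27 in Gα13-deficient and 0.25 in CD97-deficient cells, against -0.008 and -0.003 over all genes tested. The log2 fold change was positive for 68 members in Gα13-deficient cells (background 49.0% of genes) and for 70 members in CD97-deficient cells (background 49.6%). In 31 members every Gα13-deficient library lay above every WT library (background 15.5%), and in 32 every CD97-deficient library did (background 14.7%). Ndufa6 in the Gα13-deficient and Ndufb4 in the CD97-deficient comparison were the members with every knockout library below every WT library, against backgrounds of 14.0% and 13.5%. Both comparisons use the same 3 WT libraries, so their members' values are not independent.

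These counts leaned on single libraries. Without WT replicate 1 the number of members past the test was 2 in the Gα13-deficient and 1 in the CD97-deficient comparison, and the median log2 fold changes were 0.19 and 0.15. Without Gα13-deficient replicate 2 or 3 the Gα13-deficient comparison called 3 or 4 members. The CD97-deficient comparison called 2, 3 and 1 members without CD97-deficient replicates 1, 2 and 3, and 4 without Gα13-deficient replicate 2. Of the 9 fits that each left out 1 library, those for Gα13 loss called Atp5b and Ndufc2 in 9, Ndufa4 in 8, Ndufb7 and Sdhc in 5, Atp5c1 and Ndufb9 in 4, and Atp5j and Uqcrc1 in 1. For CD97 loss they called Atp5b in 9, Ndufb7 in 7, Atp5d and Ndufa4 in 5, Atp5a1 in 4, Atp5c1 and Ndufc2 in 3, and Cox5b in 1. Gα13-deficient and WT libraries of one number deviated together, and their numbers also line up with the pattern of sex-linked genes and the macrophage level. With the replicate number as a block and the 2 groups alone, the Gα13-deficient comparison called 4 members, Atp5b, Ndufc2, Ndufa4 and Sdhc.

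All 3 CD97-deficient libraries had the female pattern of sex-linked genes, as had replicate 2 of the Gα13-deficient and WT groups, and the other 4 libraries had the male pattern. With that pattern in the model the CD97-deficient comparison called 0 members in edgeR, with 17 at an unadjusted p under 0.05, 69 of 82 log2 fold changes positive and a median of 0.20. The Gα13-deficient comparison called 8. Within the female pattern the members held 0.479% of counts in the Gα13-deficient library and 0.472% to 0.518% in the CD97-deficient libraries, against 0.408% in the WT library. Within the male pattern they held 0.451% and 0.504% in the Gα13-deficient libraries, against 0.346% and 0.407% in the WT libraries. No CD97-deficient library had the male pattern, so the model separates CD97 loss from the pattern through the Gα13-deficient and WT libraries alone. The parts of CD97 loss and the female pattern in single genes are therefore poorly separated. With the macrophage level in the model 7 members were called in the Gα13-deficient and 2 in the CD97-deficient comparison.

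**Figure D2:**
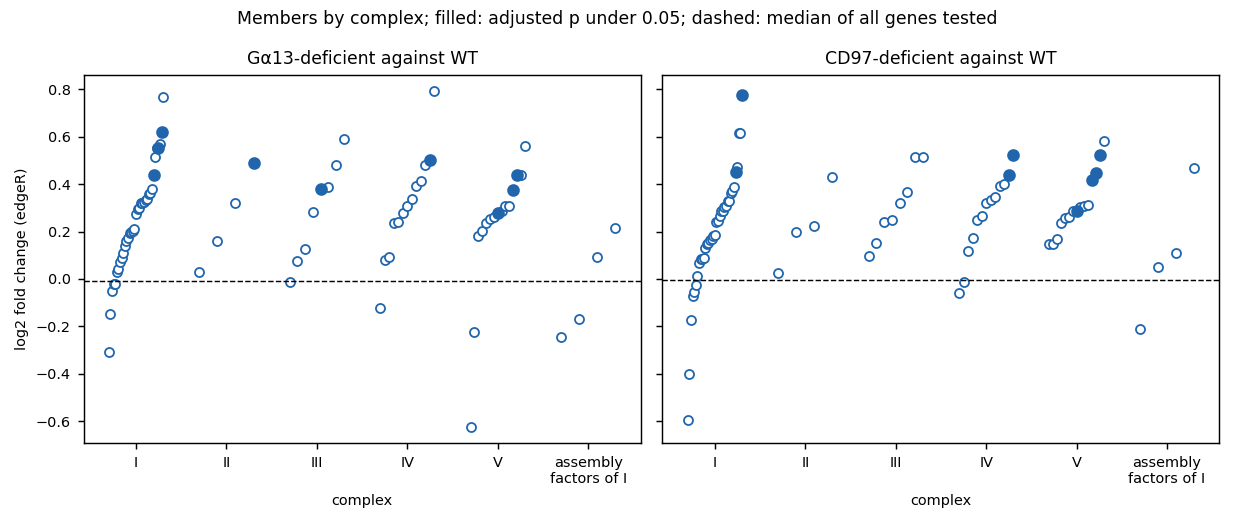
Log2 fold change of each member against WT (edgeR), by complex, in Gα13-deficient cells (left) and CD97-deficient cells (right), for the 75 subunit genes and 4 assembly factors; filled points have an adjusted p under 0.05 and the dashed line is the median of all 12043 genes tested. Most points lie above the dashed line in each of complexes I to V, and 5 of the 12 genes past the test in either panel belong to complex V.

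Of the 12 members past the test in either comparison, 5 belong to complex V. Of its 15 genes 3 (20.0%) rose and 0 fell in Gα13-deficient cells and 4 (26.7%) rose and 0 fell in CD97-deficient cells. Among all genes tested 5.74% and 4.84% rose. The median log2 fold changes of the 15 were 0.28 and 0.29. Atp5b (chromosome 10, 128083273 to 128090391, mm10), the catalytic beta subunit, had 1186, 1222 and 1367 CPM in Gα13-deficient, 1359, 1250 and 1388 CPM in CD97-deficient and 830.2, 1048 and 907 CPM in WT libraries. All 6 knockout libraries lay above the 3 WT libraries. Its log2 fold change was 0.44 ± 0.09 (SE; adjusted p = 0.00758) in Gα13-deficient and 0.52 ± 0.09 (adjusted p = 0.0035) in CD97-deficient cells, and it passed the test in both comparisons whichever of the 9 libraries was left out. With the sex pattern in the model its adjusted p was 0.0568 for CD97 loss. Per kilobase of exon it was also the member with the highest level in WT, at 219 CPM per kilobase, ahead of Atp5a1 at 111 and Cox6a1 at 96.5 CPM per kilobase.

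Atp5a1 (chromosome 18, 77773729 to 77782869), the alpha subunit that forms the catalytic head together with beta, had 386, 388 and 520.3 CPM in Gα13-deficient, 497, 434 and 466 CPM in CD97-deficient and 339, 375 and 332 CPM in WT libraries. Neither knockout overlapped WT, and Gα13-deficient replicate 3 was high among its group. The log2 fold change was 0.31 ± 0.11 (adjusted p = 0.0854) in Gα13-deficient and 0.42 ± 0.11 (adjusted p = 0.0304) in CD97-deficient cells. Without Gα13-deficient replicate 3 the value for Gα13 loss was 0.15 (adjusted p = 0.335). Its exons overlap 129 bases of Haus1 on the opposite strand, which averaged 14.3 ± 3.54 CPM in Gα13-deficient, 14.4 ± 2.12 CPM in CD97-deficient and 9.54 ± 2.8 CPM in WT libraries. Atp5c1 (chromosome 2, 10056016 to 10080510), the gamma subunit that turns inside the head, had 180.1, 187 and 182 CPM in Gα13-deficient, 188, 177 and 185 CPM in CD97-deficient and 144, 155 and 153 CPM in WT libraries. The 6 knockout libraries again lay above the WT libraries, with little spread within groups. The log2 fold changes were 0.28 ± 0.08 (adjusted p = 0.0295) for loss of Gα13 and 0.29 ± 0.08 (adjusted p = 0.0336) for loss of CD97.

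Atp5d (chromosome 10, 80138632 to 80145818), the delta subunit of the central stalk, had 61.7, 65.5 and 64.6 CPM in Gα13-deficient, 78.2, 63.5 and 69.7 CPM in CD97-deficient and 42.6, 58.1 and 54.6 CPM in WT libraries. WT replicate 1 was well below the other 8 libraries, and no knockout library overlapped WT. The log2 fold change was 0.31 ± 0.12 (adjusted p = 0.126) in Gα13-deficient and 0.45 ± 0.12 (adjusted p = 0.0353) in CD97-deficient cells. Without WT replicate 1 the value was 0.18 (adjusted p = 0.387) for Gα13 loss and 0.31 (adjusted p = 0.157) for CD97 loss. Atp5j (chromosome 16, 84827866 to 84835625), coupling factor 6 of the peripheral stalk, had 46.5, 49.7 and 50.5 CPM in Gα13-deficient, 41, 46.7 and 47.7 CPM in CD97-deficient and 33.4, 40.5 and 39.5 CPM in WT libraries. All knockout libraries exceeded the WT ones, though CD97-deficient replicate 1 did so by a small margin. The log2 fold change was 0.38 ± 0.11 (adjusted p = 0.048) in Gα13-deficient and 0.26 ± 0.12 (adjusted p = 0.181) in CD97-deficient cells. Atp5j shares up to 175 exonic bases with Gabpa on the opposite strand, which averaged 183 ± 7.87 CPM in Gα13-deficient, 183 ± 13.6 CPM in CD97-deficient and 162 ± 14.7 CPM in WT libraries.

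The 3 genes Atp5g1, Atp5g2 and Atp5g3 encode the same mature subunit c, of which the rotating ring in the membrane is built. Atp5g3 had 47.3, 54.4 and 62.9 CPM in Gα13-deficient, 59.3, 47.4 and 70.3 CPM in CD97-deficient and 35.8, 55.8 and 52.3 CPM in WT libraries, and the groups overlapped. Its log2 fold change was 0.20 ± 0.18 (adjusted p = 0.534) in Gα13-deficient and 0.31 ± 0.18 (adjusted p = 0.335) in CD97-deficient cells. Atp5g1 had 16.6, 22.2 and 24.9 CPM in Gα13-deficient, 20.3, 20.9 and 23.4 CPM in CD97-deficient and 11.9, 12.6 and 19.2 CPM in WT libraries. WT replicate 3 lay within the Gα13-deficient range and below the CD97-deficient libraries, and the log2 fold changes were 0.56 ± 0.20 (adjusted p = 0.0929) in Gα13-deficient and 0.58 ± 0.20 (adjusted p = 0.0928) in CD97-deficient cells. Atp5g2 had 4.43, 5.56 and 5.21 CPM in Gα13-deficient, 7.45, 11.3 and 9.38 CPM in CD97-deficient and 5.34, 9.23 and 8.99 CPM in WT libraries. It was low in all Gα13-deficient libraries, with one WT library as low, and its log2 fold change was -0.62 ± 0.27 (adjusted p = 0.155) in Gα13-deficient and 0.26 ± 0.26 (adjusted p = 0.572) in CD97-deficient cells.

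**Figure D3:**
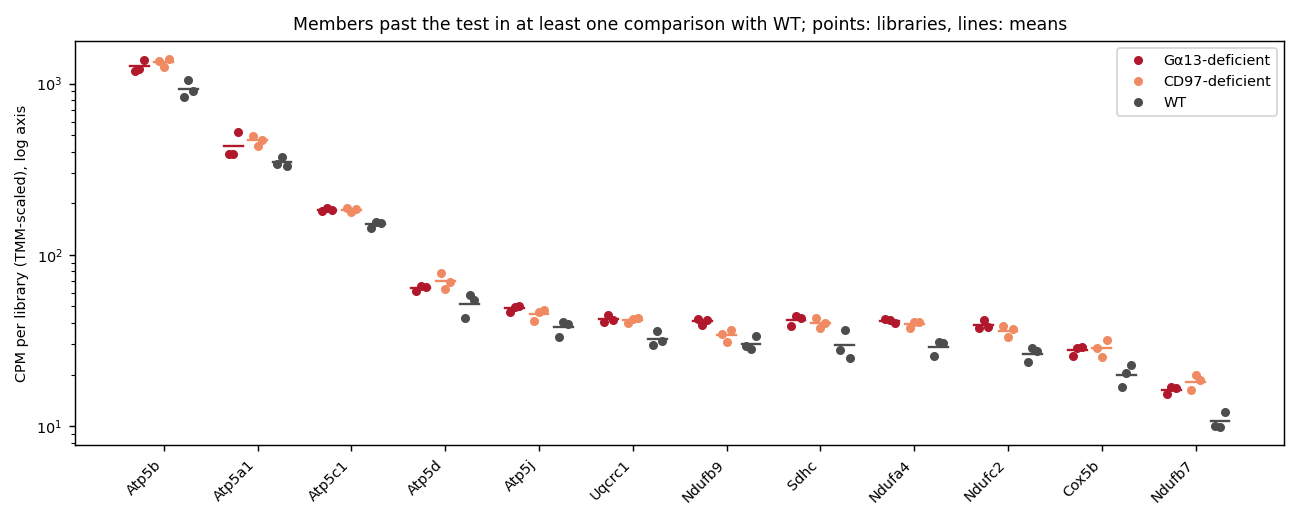
TMM-scaled CPM of the 12 members past the test in at least one comparison with WT, on a log axis, ordered by their WT level; points are libraries and lines are group means (n = 3). For Atp5b the Gα13-deficient libraries lie at 1186 to 1367 CPM and the CD97-deficient ones at 1250 to 1388 CPM, against 830 to 1048 CPM in WT.

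In complex I the genes past the test encode accessory subunits. Of the 35 genes 3 (8.57%) rose and 0 fell in Gα13-deficient cells (median log2 fold change 0.28), against 5.74% of all genes tested that rose. In CD97-deficient cells 2 (5.71%) rose and 0 fell (median 0.19), against 4.84% of all genes tested, so these shares are near the background. Ndufc2 (chromosome 7, 97400003 to 97407802), an accessory subunit of the membrane arm, had 37.6, 41.5 and 37.7 CPM in Gα13-deficient, 38.3, 33.4 and 36.7 CPM in CD97-deficient and 23.7, 28.6 and 27.3 CPM in WT libraries. Every knockout library lay above every WT library. Its log2 fold change was 0.55 ± 0.12 (SE; adjusted p = 0.00991) in Gα13-deficient cells, past the test in all 9 fits without a library, and 0.45 ± 0.12 (adjusted p = 0.0366) in CD97-deficient cells, past the test in 3 of those 9 fits (adjusted p up to 0.158, without WT replicate 1). Ndufb7 (chromosome 8, 83566671 to 83571626), another membrane arm subunit, had 15.3, 17 and 16.7 CPM in Gα13-deficient, 16.2, 19.8 and 18.6 CPM in CD97-deficient and 10.03, 9.91 and 12 CPM in WT libraries. Both knockouts lay well above WT, and the log2 fold changes, 0.62 ± 0.17 (adjusted p = 0.0267) in Gα13-deficient and 0.77 ± 0.17 (adjusted p = 0.0109) in CD97-deficient cells, were the highest among the 12 members called.

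Ndufb9 (chromosome 15, 58933756 to 58939488), also of the membrane arm, had 42.4, 39.1 and 41.6 CPM in Gα13-deficient, 34.4, 31 and 36.6 CPM in CD97-deficient and 29.4, 28.1 and 33.6 CPM in WT libraries. The Gα13-deficient libraries were above all others, while CD97-deficient and WT libraries overlapped. The log2 fold change was 0.44 ± 0.12 (adjusted p = 0.0295) in Gα13-deficient and 0.17 ± 0.12 (adjusted p = 0.425) in CD97-deficient cells. Ndufv1, the core subunit that binds NADH and FMN, had 38.9, 35.4 and 34.5 CPM in Gα13-deficient, 35.7, 32.6 and 34.9 CPM in CD97-deficient and 31.2, 33.4 and 34.3 CPM in WT libraries. The differences were small, with log2 fold changes of 0.14 ± 0.11 (adjusted p = 0.474) in Gα13-deficient and 0.07 ± 0.11 (adjusted p = 0.766) in CD97-deficient cells. Ndufs1, the largest core subunit and a carrier of iron-sulfur clusters, had 64.5, 78 and 83 CPM in Gα13-deficient, 80.5, 75.2 and 85 CPM in CD97-deficient and 66.6, 77.4 and 70.9 CPM in WT libraries. Its groups overlapped, and its log2 fold changes were 0.07 ± 0.11 (adjusted p = 0.742) in Gα13-deficient and 0.16 ± 0.11 (adjusted p = 0.388) in CD97-deficient cells, with 95% intervals of -0.15 to 0.29 for Gα13 loss and -0.05 to 0.38 for CD97 loss.

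Ndufab1, the acyl carrier protein that also serves mitochondrial fatty acid synthesis, had the lowest fold change of the members after CD97 loss. It had 3.4, 6.08 and 2.64 CPM in Gα13-deficient, 2.25, 3.07 and 2.57 CPM in CD97-deficient and 3.05, 4.35 and 4.58 CPM in WT libraries. The groups overlapped, and the log2 fold change was -0.02 ± 0.37 (adjusted p = 0.978) in Gα13-deficient and -0.59 ± 0.38 (adjusted p = 0.365) in CD97-deficient cells. The other complex I genes had log2 fold changes of -0.31 to 0.77 in Gα13-deficient cells, which Ndufa6 and Ndufb2 bound. None of the 4 assembly factors passed the test or had an unadjusted p under 0.05. Ndufaf4 had 20.4, 21.4 and 25.3 CPM in Gα13-deficient, 28.7, 21.5 and 18.5 CPM in CD97-deficient and 28.2, 24.4 and 27 CPM in WT libraries, with log2 fold changes of -0.24 ± 0.17 (adjusted p = 0.392) in Gα13-deficient and -0.21 ± 0.17 (adjusted p = 0.473) in CD97-deficient cells. Ndufaf2 had 6.81, 5.21 and 6.49 CPM in Gα13-deficient, 7.33, 7.32 and 7.59 CPM in CD97-deficient and 4.8, 7.47 and 3.73 CPM in WT libraries, with log2 fold changes of 0.21 ± 0.27 (adjusted p = 0.667) in Gα13-deficient and 0.47 ± 0.27 (adjusted p = 0.308) in CD97-deficient cells. In both genes the knockout and WT libraries overlapped.

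In complex II, which is also an enzyme of the tricarboxylic acid cycle, a membrane anchor rose and the catalytic subunit stayed within the spread between libraries. Sdhc (chromosome 1, 171127165 to 171150603), one of the anchors that bind coenzyme Q, had 38.6, 44.1 and 42.9 CPM in Gα13-deficient, 42.6, 37.5 and 40.1 CPM in CD97-deficient and 27.8, 36.4 and 24.9 CPM in WT libraries. WT replicate 2 came close to the knockouts and the other WT libraries were well below. The log2 fold change was 0.49 ± 0.14 (adjusted p = 0.0344) in Gα13-deficient and 0.43 ± 0.14 (adjusted p = 0.071) in CD97-deficient cells. Sdha, the flavoprotein that oxidises succinate, had 210.04, 212 and 219 CPM in Gα13-deficient, 218, 212 and 208 CPM in CD97-deficient and 209, 207 and 212 CPM in WT libraries. All 9 libraries lay between 207 and 219 CPM, with log2 fold changes of 0.03 ± 0.07 (95% interval -0.11 to 0.17, adjusted p = 0.85) in Gα13-deficient and 0.02 ± 0.07 (95% interval -0.12 to 0.17, adjusted p = 0.87) in CD97-deficient cells. Sdhb, the iron-sulfur subunit, had 29.96, 36 and 28.5 CPM in Gα13-deficient, 27.3, 27.8 and 30.9 CPM in CD97-deficient and 23.4, 28.4 and 23.2 CPM in WT libraries. One WT library lay within the CD97-deficient range, and the log2 fold changes were 0.32 ± 0.14 (adjusted p = 0.162) in Gα13-deficient and 0.20 ± 0.14 (adjusted p = 0.422) in CD97-deficient cells.

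Of the 8 complex III genes, 1 (12.5%) rose in Gα13-deficient and 0 in CD97-deficient cells, against 5.74% and 4.84% of all genes tested. Their median log2 fold changes were 0.33 and 0.28. In each comparison 4 of the 8 had an unadjusted p under 0.05 in edgeR. Of the 12043 genes tested 3111 (Gα13-deficient) and 2946 (CD97-deficient) did. Uqcrc1 (chromosome 9, 108936633 to 108949623), a core protein of the matrix side, had 40.7, 44.3 and 41.7 CPM in Gα13-deficient, 40.2, 42 and 43 CPM in CD97-deficient and 29.97, 36 and 31.2 CPM in WT libraries. All knockout libraries were above the WT libraries. The log2 fold changes were nearly equal, 0.38 ± 0.11 (adjusted p = 0.0418) in Gα13-deficient and 0.37 ± 0.11 (adjusted p = 0.0585) in CD97-deficient cells, on either side of the threshold. Uqcrfs1, the Rieske iron-sulfur protein, had 43.1, 35.1 and 34.5 CPM in Gα13-deficient, 38.5, 39.4 and 37.8 CPM in CD97-deficient and 28.7, 30.4 and 33.8 CPM in WT libraries. Neither knockout overlapped WT, yet the log2 fold changes of 0.28 ± 0.13 (adjusted p = 0.167) in Gα13-deficient and 0.32 ± 0.13 (adjusted p = 0.125) in CD97-deficient cells did not pass. Cyc1, the cytochrome c1 of the same complex, is outside the symbol rule and averaged 55.2 ± 4.65 CPM in Gα13-deficient, 50.5 ± 8.1 CPM in CD97-deficient and 44.7 ± 7.31 CPM in WT libraries, with an adjusted p of 0.18 for Gα13 loss and 0.447 for CD97 loss.

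Of the 13 complex IV genes 1 (7.69%) rose in Gα13-deficient and 2 (15.4%) in CD97-deficient cells, and 0 fell in either. Among all genes tested 5.74% and 4.84% rose. The median log2 fold changes of the 13 were 0.31 and 0.32. Ndufa4 (chromosome 6, 11900292 to 11907497), named as a complex I gene and now counted as a subunit of complex IV, had 42.2, 41.7 and 39.9 CPM in Gα13-deficient, 37.2, 40.5 and 40.4 CPM in CD97-deficient and 25.8, 31.1 and 30.5 CPM in WT libraries. The knockout libraries kept clear of the WT libraries. The log2 fold changes were 0.50 ± 0.12 (adjusted p = 0.0121) in Gα13-deficient and 0.44 ± 0.12 (adjusted p = 0.0321) in CD97-deficient cells, and without WT replicate 1 the adjusted p was 0.0523 for Gα13 loss and 0.146 for CD97 loss. Cox5b (chromosome 1, 36691449 to 36693681), a zinc-binding subunit, had 25.6, 28.7 and 29 CPM in Gα13-deficient, 28.5, 25.3 and 31.9 CPM in CD97-deficient and 16.9, 20.4 and 22.7 CPM in WT libraries. No knockout library overlapped WT here either, and the log2 fold change was 0.48 ± 0.15 (adjusted p = 0.0542) in Gα13-deficient and 0.52 ± 0.15 (adjusted p = 0.0439) in CD97-deficient cells. Cox5b passed the test in 1 of the 9 fits without a library for CD97 loss.

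Several complex IV subunits exist as isoforms, one used in most tissues and one in heart, muscle or testis. The isoforms used in most tissues are given first. Cox6a1 had 79.2, 103 and 84.7 CPM in Gα13-deficient, 81.8, 82.6 and 101 CPM in CD97-deficient and 59.5, 67.1 and 76.5 CPM in WT libraries, all knockout libraries above WT (log2 fold change 0.39 ± 0.13 with adjusted p = 0.0627 for Gα13 loss, and 0.39 ± 0.13 with adjusted p = 0.0714 for CD97 loss). Cox7a2 showed the same order with 30.5, 31.1 and 25 CPM in Gα13-deficient, 26.6, 29.1 and 29.7 CPM in CD97-deficient and 20.7, 20.6 and 23.4 CPM in WT libraries (log2 fold change 0.42 ± 0.14 with adjusted p = 0.0688 for Gα13 loss, and 0.40 ± 0.14 with adjusted p = 0.0883 for CD97 loss). Neither gene passed the test although knockout and WT libraries did not overlap. Cox6b1 had 41.1, 38.9 and 41.4 CPM in Gα13-deficient, 40.2, 42.2 and 46.6 CPM in CD97-deficient and 29.4, 38.2 and 35.8 CPM in WT libraries (log2 fold change 0.24 ± 0.12 with adjusted p = 0.241 for Gα13 loss, and 0.32 ± 0.12 with adjusted p = 0.116 for CD97 loss). Cox8a had 36.9, 36.5 and 42.3 CPM in Gα13-deficient, 41.3, 31.5 and 37.5 CPM in CD97-deficient and 22.9, 32.7 and 36.8 CPM in WT libraries (log2 fold change 0.34 ± 0.16 with adjusted p = 0.212 for Gα13 loss, and 0.27 ± 0.16 with adjusted p = 0.345 for CD97 loss). WT replicate 1 was the lowest library in both of these genes.

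Cox4i1, an early assembled subunit, had 95.1, 115 and 102 CPM in Gα13-deficient, 101, 105 and 112 CPM in CD97-deficient and 89.8, 106 and 96.6 CPM in WT libraries. The groups overlapped, with log2 fold changes of 0.09 ± 0.10 (adjusted p = 0.609) in Gα13-deficient and 0.12 ± 0.10 (adjusted p = 0.497) in CD97-deficient cells, and its exons share 154 bases with Cox4nb on the opposite strand. Cox7a2l, a factor that joins complexes III and IV into supercomplexes and is known to be truncated in C57BL/6 mice, had 89.5, 78.7 and 95 CPM in Gα13-deficient, 91.5, 91.3 and 92.4 CPM in CD97-deficient and 88.5, 88.4 and 110.5 CPM in WT libraries. Its fold changes were negative in both knockouts, at -0.12 ± 0.11 (adjusted p = 0.519) in Gα13-deficient and -0.06 ± 0.11 (adjusted p = 0.773) in CD97-deficient cells on the log2 scale, and did not pass the test. Cox6b2, the testis isoform of Cox6b1, was present at a low level of 4.88, 8.68 and 9.2 CPM in Gα13-deficient, 3.78, 5.42 and 3.91 CPM in CD97-deficient and 4.03, 4.89 and 4.24 CPM in WT libraries. Gα13-deficient replicates 2 and 3 were high and replicate 1 was within the WT range, and the log2 fold changes were 0.79 ± 0.29 (adjusted p = 0.0977) in Gα13-deficient and -0.01 ± 0.31 (adjusted p = 0.981) in CD97-deficient cells.

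No member separated the knockouts past the test. In the direct comparison of Gα13-deficient with CD97-deficient cells 0 of 82 members passed edgeR's quasi-likelihood test, against a background of 0.0332% of genes higher and 0.0166% lower, 0.0498% in all. DESeq2 called 0 as well. In edgeR 3 members, Atp5g2, Cox6b2 and Ndufb9, had an unadjusted p under 0.05, against 722 of the 12043 genes tested. A p that misses the threshold does not show that the knockouts act alike. The median log2 difference, Gα13-deficient minus CD97-deficient, was -0.02, with 36 of 82 members positive (background 49.1%). In 2 members every Gα13-deficient library lay above every CD97-deficient one (background 7.16%), and in 6 members below (background 5.99%). For Atp5b the difference was -0.08 ± 0.09 with a 95% interval of -0.26 to 0.10, and for Ndufc2 it was 0.10 ± 0.12 with an interval of -0.13 to 0.34. The widest differences were in lowly expressed isoforms, -0.89 ± 0.26 for Atp5g2 (adjusted p = 0.502), where every Gα13-deficient library was below every CD97-deficient one, and 0.81 ± 0.29 for Cox6b2 (adjusted p = 0.687). Of the 12 members called against WT, 5 were called in both comparisons (Atp5b, Atp5c1, Ndufa4, Ndufb7 and Ndufc2), 4 in the Gα13-deficient comparison alone (Atp5j, Ndufb9, Sdhc and Uqcrc1) and 3 in the CD97-deficient comparison alone (Atp5a1, Atp5d and Cox5b). The same overlap was not counted over all genes tested, so these numbers have no background beside them and describe the members alone. None of these 12 passed the direct test.

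The other mitochondrial gene lists are set here against the 5.74% (Gα13-deficient) and 4.84% (CD97-deficient) of all genes tested that rose. Of 32 OXPHOS assembly factors outside the symbol rule 0 passed edgeR's test in either comparison (3 and 4 had an unadjusted p under 0.05), with median log2 fold changes of 0.02 in Gα13-deficient and 0.08 in CD97-deficient cells. Of 21 electron carriers and genes of coenzyme Q synthesis, 2 (9.52%) rose in both comparisons, Etfa, a subunit of the flavoprotein that feeds electrons from fatty acid oxidation, and Gpd2, the mitochondrial glycerol phosphate dehydrogenase. The median of that list was -0.006 in Gα13-deficient and 0.05 in CD97-deficient cells. Of 18 tricarboxylic acid cycle genes 1 (5.56%) rose in Gα13-deficient cells (Idh2, the NADP-dependent isocitrate dehydrogenase) and 4 (22.2%) rose in CD97-deficient cells (Idh2, Fh1 and Ogdh among them), with medians of 0.17 and 0.22. Slc25a5, an ADP/ATP carrier of the inner membrane, averaged 188 ± 3.92 CPM in Gα13-deficient, 205 ± 12 CPM in CD97-deficient and 146 ± 9.52 CPM in WT libraries, with log2 fold changes of 0.37 ± 0.08 (adjusted p = 0.0106) in Gα13-deficient and 0.49 ± 0.08 (adjusted p = 0.00236) in CD97-deficient cells. It was the 1 gene past the test among 8 carriers and ATP synthase inhibitors in each comparison, where the medians were 0.12 and 0.29.

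Of 76 mitochondrial ribosomal protein genes 4 (5.26%) rose and 0 fell in each comparison, among them Mrpl18, Mrpl4 and Mrps28, with medians of 0.18 in Gα13-deficient and 0.19 in CD97-deficient cells. These shares are near the background of 5.74% for Gα13 loss and 4.84% for CD97 loss. Of 25 genes of mitochondrial protein import 1 rose in Gα13-deficient cells (Timm17b) and 0 in CD97-deficient cells (4 had an unadjusted p under 0.05), with medians of 0.15 and 0.18. Among 23 regulators of mitochondrial biogenesis 0 rose. Mtif2, a mitochondrial translation initiation factor, fell in Gα13-deficient cells by 0.37 on the log2 scale (adjusted p = 0.0452). There 5.24% of all genes tested fell. Regulators known for OXPHOS genes had no call. Nrf1 averaged 60.4 ± 5.6 CPM in Gα13-deficient, 56.6 ± 3.93 CPM in CD97-deficient and 54.8 ± 2.65 CPM in WT libraries. Tfam averaged 55.5 ± 1.67 CPM in Gα13-deficient, 52 ± 5.54 CPM in CD97-deficient and 48.5 ± 6.1 CPM in WT libraries. The log2 fold change of Esrra was -0.57 ± 0.26 (adjusted p = 0.179) for Gα13 loss and -0.56 ± 0.26 (adjusted p = 0.196) for CD97 loss. Its WT libraries had 13.8, 10.7 and 24.8 CPM. That of Ppargc1a was 0.41 ± 0.28 (adjusted p = 0.392) for Gα13 loss and 0.69 ± 0.28 (adjusted p = 0.146) for CD97 loss. Outside the mitochondrion, of 76 cytosolic ribosomal protein genes 6 (7.89%) rose in Gα13-deficient and 3 (3.95%) in CD97-deficient cells and 0 fell, against the same backgrounds of 5.74% and 4.84%, with medians of 0.17 and 0.15. Their log2 fold change was positive for 74 of 76 genes in Gα13-deficient cells (background 49.0%) and for 71 of 76 in CD97-deficient cells (background 49.6%).

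**Figure D4:**
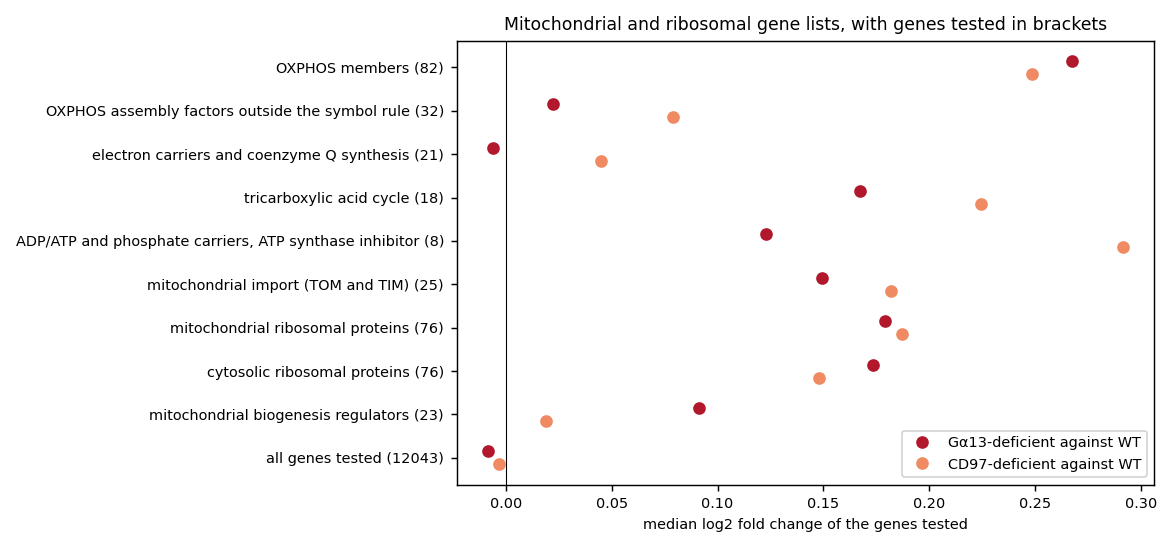
Median log2 fold change of each fixed gene list in Gα13-deficient and CD97-deficient cells against WT, with the number of genes tested in brackets. The OXPHOS members have medians of 0.27 and 0.25, the ribosomal lists 0.15 to 0.19 and all genes tested values near 0.

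OXPHOS genes are short, and short genes as a whole were shifted in the same direction. The members' exons cover a median of 1808 bases, against 4442 bases over all genes tested. Among protein-coding genes with under 1000 exonic bases the median log2 fold change was 0.15 in Gα13-deficient and 0.13 in CD97-deficient cells (213 genes), and among those with 4000 or more it was -0.03 in both (6576 genes). In every class of exonic length the members' median was above that of all protein-coding genes tested. This length counts every base in any annotated exon of a gene, so it can exceed the length of a single transcript. The classes therefore do not match members to genes with transcripts of equal length. With under 1000 bases 16 members had medians of 0.35 and 0.28, and with 4000 or more bases 12 members had medians of 0.17 and 0.24. The part of length in the members' shift was not tested.

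**Figure D5:**
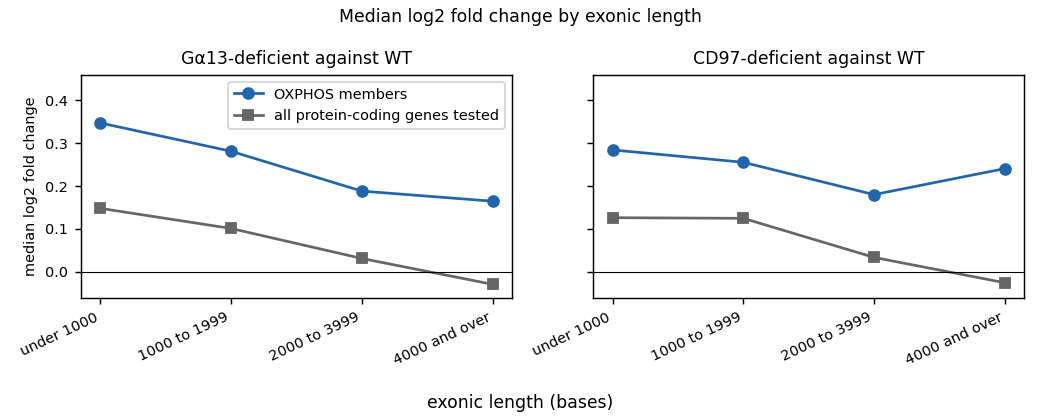
Median log2 fold change against WT by exonic length in Gα13-deficient cells (left) and CD97-deficient cells (right), for the 82 OXPHOS members (circles) and all protein-coding genes tested (squares). Both lines start high in the shortest class, and the members lie above the other line in all 4 classes of both panels.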

How the data were processed

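The deposited table gives raw read counts, 1 row per gene symbol, which are whole numbers as the authors left them. The submitters' processing notes name STAR, HTSeq, DESeq2 and the mm10 build, without versions. Whether counting used strand and how multiply mapped reads were treated are not given in the sources used here, so exons shared with a gene on the other strand cannot be told apart, and members with pseudogene copies are uncertain. WT columns carry the numbers of the source names and not those of the titles, and were assigned by the source names.

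The deposited counts went into edgeR 4.0.16 under R 4.3.3 (TMM factors, filterByExpr, quasi-likelihood F-tests with robust estimation). All 9 libraries entered 1 fit with genotype as the factor. The filter left 12043 genes and removed 2166, and Benjamini-Hochberg adjustment ran over all of them with a threshold of 0.05. The common biological coefficient of variation was 0.150. Standard errors and 95% intervals were computed from the F statistic with a normal quantile of 1.96. CPM values are TMM-scaled, and 3 counts equal 0.216 to 0.528 CPM depending on the library. Exonic lengths, positions and overlaps came from GENCODE mouse release M21 by symbol (80 members directly, 2 by synonym). The test was tried on simulated counts.

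Replicate numbers in the titles were checked for pairing. Deviations of same-number Gα13-deficient and WT libraries from their group means correlated in 3 of 3 pairs (0.111 to 0.179, against -0.12 to -0.021 for other numbers), so the blocked count stands beside that result. Deviations cancel out within a group, so positive same-number correlations make the others negative, which adds no separate evidence. In both groups replicate 2 had the female pattern and the highest macrophage level, and replicates 1 and 3 had the male pattern. What else a number may share cannot be told apart from these. The alternatives were RLE size factors, library totals, no filter, DESeq2 1.42.0, each library left out, the 2 groups alone, the replicate block, and the sex pattern or macrophage level in the model.

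The members and gene lists were chosen with earlier results of these data known. Full values go to members past the test, those with the smallest p per complex, those with the extreme fold change per comparison, the isoform sets of complex IV and subunit c, and the catalytic or electron-carrying subunits. Atp5j was added to them as the ninth gene past the test, after its values were seen. The values of 1 gene outside the members are not reported here.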

Additional observations from a re-analysis of the deposited data

How the results depend on the processing

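The members' median log2 fold change was positive under every alternative run, at 0.187 to 0.304 for Gα13 loss and 0.151 to 0.301 for CD97 loss when single libraries were left out, and at 0.262 to 0.304 and 0.203 to 0.298 over the others. For CD97 loss the lowest value, 0.151, came without WT replicate 1. The counts of members past the test were less stable. For Gα13 loss (9 members) they ran from 2, without WT replicate 1, to 10 over the fits that left out a library, with 3 and 4 without Gα13-deficient replicates 2 and 3. For CD97 loss (8 members) they ran from 1 to 11, with 1 without WT replicate 1 or CD97-deficient replicate 3, 2 and 3 without CD97-deficient replicates 1 and 2, and 4 without Gα13-deficient replicate 2. With the 2 groups alone each comparison called 3 members, and with the replicate block in the 2 groups alone each called 4. With the replicate block in all 9 libraries the counts were 11 for Gα13 loss and 10 for CD97 loss. Same-number pairs of CD97-deficient and WT libraries did not deviate together (correlations of -0.301 to 0.059), nor did those of the knockouts (-0.073 to 0.011), so there the number may mark nothing shared. The sex pattern in the model left 0 members for CD97 loss and the macrophage level left 2. RLE size factors, library totals, no filter and DESeq2 gave 8 to 12 members in both comparisons. Between the knockouts 0 members passed under every alternative, and the replicate block changed no call there. For the 30 members given in full, 0 alternatives reversed a called direction, 1492 refitted values stayed on their side of the threshold, 109 fell below it and 19 rose past it. The 109 all fell on the 9 calls for Gα13 loss and the 8 for CD97 loss. Each call had 9 fits without a library and 9 other settings. The 1492 include values not called in the main fit, among them every refit between the knockouts, so they do not measure how often calls held. The cause was not tested. The 3 libraries per group and the spread between them limit the precision of each gene's value.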
